A study of Homo sapiens with 6 samples.

Results

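The ERBB family of receptor tyrosine kinases and its growth factor ligands was described in IGROV-1, a cell line from a human ovarian carcinoma, by the probes annotated to EGFR, ERBB2, ERBB3, ERBB4, AREG, EREG, HBEGF, TGFA, BTC and NRG1. Of these 10 genes 9 had a probe named in the platform annotation, out of 18852 genes named there, with 23 of the 48803 probes on the array, and AREG, the gene of the ligand amphiregulin, had none, so its level is not given here. The 6 samples of total RNA were each read on a single-colour bead array from Illumina. In 3 samples the cells had received saline, for a time not given in the sources used here. The other 3 were treated for 24 h with 10 µM CpG-ODN, here ODN1826, a short synthetic DNA on a phosphorothioate backbone that carries unmethylated CpG and that Toll-like receptor 9 is known to sense. Both groups were of this one line, grown with serum per the series' design text, which is itself a source of growth factors. The labels do not say whether replicates came from separate cultures, and the p-values therefore reflect the spread between these 6 samples alone, part of which may be technical. As no study text names this family, the comparison asked only whether its transcripts differed between CpG-ODN and saline.

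ERBB receptors sit in the cell membrane as single chains that pair when a ligand binds, and the paired kinase domains phosphorylate each other's tails. EGFR binds EGF, transforming growth factor alpha, amphiregulin, epiregulin, betacellulin and HB-EGF, whereas ERBB3 and ERBB4 bind neuregulins, and ERBB4 also binds several of the EGF-like ligands. ERBB2 has no known ligand of its own and serves as the preferred partner of the others, while ERBB3 has little kinase activity. The ligands are made as membrane-anchored precursors that ADAM proteases release. In ovarian carcinoma ERBB2 amplification and a neuregulin loop through ERBB3 have been described in subsets of tumours and cell lines.

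Between 17142 and 18790 probes per array were detected, meaning a detection p under 0.05, and the lowest intensity called detected lay between 128.8 and 140.3 on the 6 arrays. CpG-ODN 1 and CpG-ODN 2 stood apart from each other. Over the 17950 probes tested they correlated at 0.964, against 0.989 to 0.991 for pairs of saline arrays. CpG-ODN 3 correlated with saline 1, 2 and 3 at 0.989, 0.990 and 0.990, and with CpG-ODN 1 and CpG-ODN 2 at 0.977 and 0.983. Among 10 epithelial and Müllerian marker genes 8 were detected on all 6 arrays, among them PAX8, EPCAM and KRT7. WT1 and MUC16 were detected too, but by no probe on all 6 arrays, and both WT1 probes were detected on 0 saline arrays. Of the leukocyte markers PTPRC and CD3E were detected on 0 arrays, and CD14 and CD68 on all 6. Of 5 fibroblast markers COL1A2, COL3A1 and LUM were detected on 0 arrays, and COL1A1 and DCN on some arrays only. Of 3 endothelial markers CDH5 was detected on 0 arrays, while VWF and PECAM1 were detected on all 6. The summed non-normalized intensity of the endothelial list, with the undetected CDH5 included, was 1011 to 1042 on saline and 775 to 859 on CpG-ODN arrays. Its part in the results below was not tested. The sums of the epithelial list, 27179 to 30379 on saline and 24487 to 31151 on CpG-ODN arrays, overlapped. So did those of the leukocyte list, 2800 to 2994 on saline and 2496 to 3224 on CpG-ODN arrays. The fibroblast sums, 1115 to 1130 on saline and 1034 to 1119 on CpG-ODN arrays, overlapped narrowly.

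All 4 receptors and 4 of the 6 ligands had a probe that was detected often enough to be tested, which here means on at least 3 of the 6 arrays. Of the 23 member probes 11 passed that filter, or 47.8%, against 51.7% of all probes with 1 gene symbol. Another 10 member probes were detected on 0 arrays and 9 on all 6. With limma, 0 of the 11 tested probes differed between CpG-ODN and saline at a Benjamini-Hochberg adjusted p under 0.05, where the background was 0% of 17950 probes (0 of 17950, and 643 at an unadjusted p under 0.05). At an unadjusted p under 0.05 there were 0 member probes, against a background of 3.58%. In 0 of the 11 the 3 CpG-ODN arrays lay wholly on one side of the 3 saline arrays, against 9.35% of all tested probes. The median log2 fold change of the 11 probes, CpG-ODN minus saline, was 0.05, against −0.01 over all tested probes, with 8 higher and 3 lower means.

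**Figure D1:**
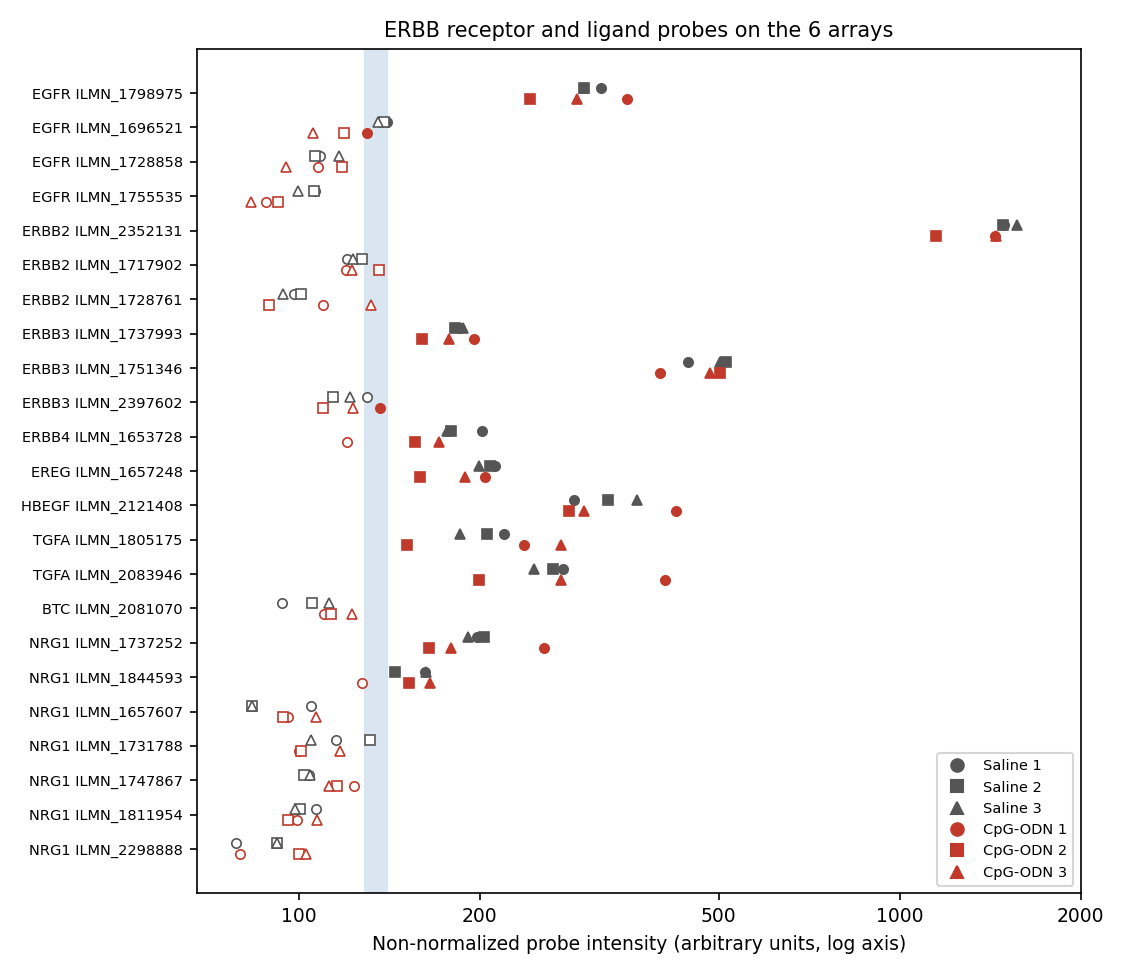
Non-normalized intensity (arbitrary units, log axis) of the 23 ERBB receptor and ligand probes on 3 saline (grey) and 3 CpG-ODN (red) arrays. Filled symbols are detected and open symbols not detected, and the blue band spans the lowest detected intensity of the 6 arrays, 128.8 to 140.3. Each receptor gene has a probe to the right of the band, on all arrays but CpG-ODN 1 for ERBB4, and the BTC probe lies to its left on every array.

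EGFR, the receptor of the EGF-like ligands, was detected on all 6 arrays by 1 of its 4 probes. The probe assigned to the full-length transcript (ILMN_1798975, NM_005228) read 318.5, 298.3 and 298.3 on the saline arrays and 351.4, 242.5 and 290.7 on the CpG-ODN arrays. On the normalized log2 scale its values were 7.74, 7.62 and 7.62 in saline and 7.85, 7.62 and 7.71 in CpG-ODN. CpG-ODN 1 was the highest array, CpG-ODN 2 lay at the low end, and the groups overlapped. In such bulk RNA a change in the share of cells with a transcript and a change in its level per cell cannot be told apart. The log2 fold change was 0.07 ± 0.16 (SE, 3 arrays in each group), with a 95% interval from −0.29 to 0.43. The other 3 EGFR probes are assigned to transcripts of shorter receptor forms without a kinase domain. ILMN_1728858 (NM_201284) and ILMN_1755535 (NM_201282) were detected on 0 arrays. ILMN_1696521 (NM_201282) was detected on saline 1 and CpG-ODN 1 alone, with intensities from 105.6 to 140.1 over the 6 arrays. Whether a probe also matches other transcripts of its gene was not checked, since no probe sequences were used here.

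ERBB2, the co-receptor without a ligand, was detected on all 6 arrays by 1 of its 3 probes. ILMN_2352131 (NM_004448) gave 1489, 1487 and 1564 in saline and 1438, 1150 and 1445 in CpG-ODN. After normalization the values were 10.37, 10.42 and 10.51 in saline and 10.17, 10.37 and 10.52 in CpG-ODN. CpG-ODN 2, the dimmest array before normalization, lay level with the lowest saline array once all had been brought to one distribution, and the lowest normalized value was that of CpG-ODN 1. The fold change was −0.08 ± 0.17 on the log2 scale, and its 95% interval, −0.46 to 0.30, lay inside 1.5-fold either way. ILMN_1728761, assigned to the same transcript, was detected on 0 arrays at 89.4 to 131.9, as was ILMN_1717902 (NM_001005862) at 120.0 to 135.9. The annotation therefore assigns 1 transcript to a detected and to an undetected probe, and the intensities do not show which part of it each probe reads.

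ERBB3, the neuregulin receptor with an impaired kinase, had 2 tested probes. The probe of its full-length transcript (ILMN_1751346, NM_001982) gave log2 values of 8.38, 8.67 and 8.63 in saline and 8.08, 9.05 and 8.70 in CpG-ODN. CpG-ODN 1 lay below and CpG-ODN 2 above every saline array. The log2 fold change was 0.05 ± 0.25. The probe assigned to a short secreted form (ILMN_1737993, NM_001005915) gave 6.46, 6.44 and 6.49 in saline and 6.63, 6.38 and 6.46 in CpG-ODN. Here CpG-ODN 1 was the highest array and CpG-ODN 2 the lowest, the reverse of the order on the full-length probe, and the log2 fold change was 0.03 ± 0.16. The other probe of the short form (ILMN_2397602) was detected on 0 saline arrays and on CpG-ODN 1.

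ERBB4, a neuregulin receptor with an active kinase, had the most negative fold change of the family, and it did not pass the test. Its single probe (ILMN_1653728, NM_005235) read 202.0, 179.3 and 176.8 in saline and 120.4, 155.9 and 170.9 in CpG-ODN. CpG-ODN 1 was the only array on which it was not detected. The normalized values were 6.68, 6.40 and 6.31 in saline and 5.32, 6.27 and 6.33 in CpG-ODN. CpG-ODN 3 lay within the saline range and CpG-ODN 2 just under it, so most of the difference in means came from CpG-ODN 1. The log2 fold change was −0.49 ± 0.27, with a 95% interval from −1.10 to 0.13 (limma unadjusted p = 0.106, adjusted p = 1.00). Without CpG-ODN 1 it was −0.16.

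**Figure D2:**
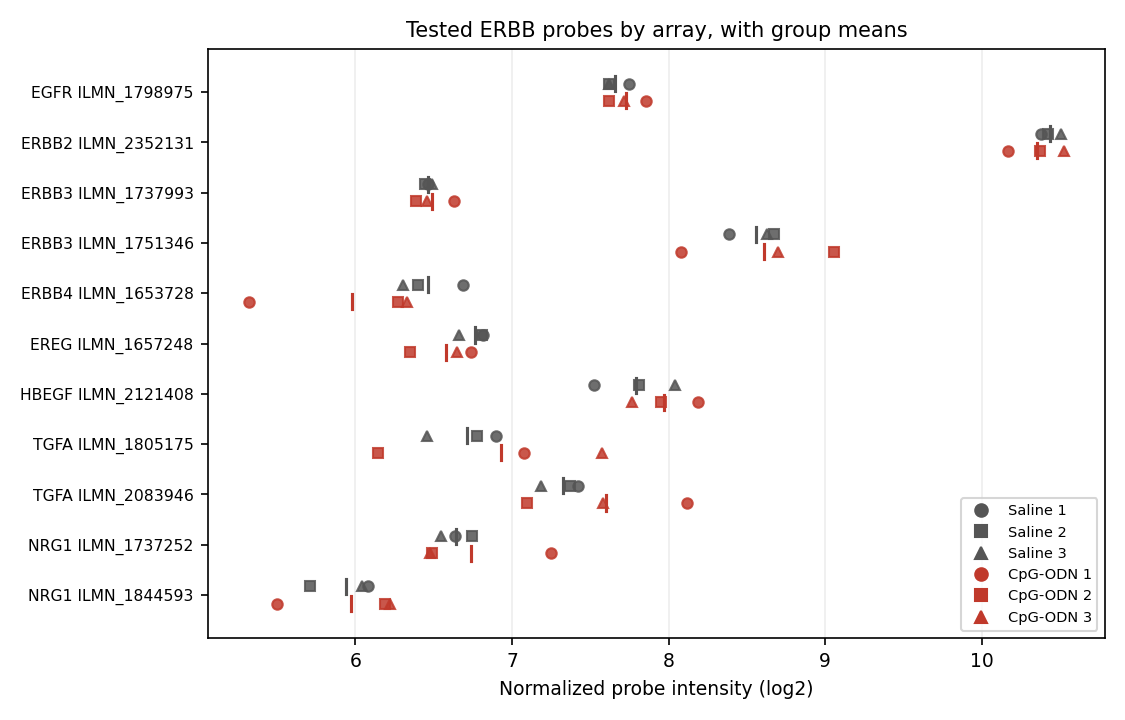
Normalized log2 intensity of the 11 tested ERBB probes on each saline (grey) and CpG-ODN (red) array, with vertical bars at the group means. The groups overlap for all 11 probes, and CpG-ODN 1 (red circle) is the CpG-ODN array farthest from the saline mean for 8 of them.

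Among the ligands of EGFR, HB-EGF, epiregulin and transforming growth factor alpha were detected and betacellulin was not. HBEGF encodes the heparin-binding ligand of EGFR and ERBB4. Its probe (ILMN_2121408) gave log2 values of 7.52, 7.81 and 8.04 in saline and 8.19, 7.95 and 7.77 in CpG-ODN. Saline 1 was the lowest and CpG-ODN 1 the highest array, and the remaining arrays of both groups were interleaved. HBEGF was the only tested member whose saline arrays spread more (SD 0.26) than its CpG-ODN arrays (SD 0.21), and its log2 fold change was 0.18 ± 0.20. EREG encodes epiregulin, which binds EGFR and ERBB4. Its probe (ILMN_1657248) gave 6.82, 6.81 and 6.66 in saline and 6.74, 6.35 and 6.65 in CpG-ODN. CpG-ODN 1 lay within the saline range, CpG-ODN 3 just under it and CpG-ODN 2 farther below, for a log2 fold change of −0.18 ± 0.17. BTC, the betacellulin gene, had 1 probe (ILMN_2081070), with intensities of 93.7, 105.1 and 112.2 in saline and 110.3, 113.3 and 122.6 in CpG-ODN. It was not above background on any of the 6 arrays, which does not show that the transcript was absent.

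TGFA, the gene of transforming growth factor alpha, had the largest positive fold changes of the family, and neither of its probes passed. ILMN_2083946 (NM_003236) read 274.8, 265.2 and 246.0 in saline and 406.7, 199.3 and 273.6 in CpG-ODN, so both the brightest and the dimmest array were CpG-ODN arrays. Its log2 values were 7.42, 7.37 and 7.18 in saline and 8.12, 7.10 and 7.58 in CpG-ODN, and the log2 fold change was 0.27 ± 0.25 (95% interval −0.29 to 0.83). Without CpG-ODN 1 it was 0.013. ILMN_1805175 (NM_001099691) gave 6.90, 6.78 and 6.46 in saline and 7.08, 6.14 and 7.58 in CpG-ODN. CpG-ODN 1 and CpG-ODN 3 lay above every saline array on both probes, and CpG-ODN 2 below. The SD over CpG-ODN arrays was 0.73 on this probe against 0.23 over saline arrays, and the log2 fold change was 0.22 ± 0.33. Without CpG-ODN 2 the changes were 0.52 and 0.62, with limma unadjusted p of 0.0361 and 0.0234 and an adjusted p of 0.942 for both. Without CpG-ODN 3 the ILMN_1805175 value turned to −0.10.

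The promoters of HBEGF, EREG and BTC, the 3 ligands with a single probe each, are shown as the sequence at their starts. They are RefSeq sequences of GRCh38.p14, from 250 bases before to 50 bases after the annotated start, at chr5:140346554-140346853 (minus strand), chr4:74364895-74365194 (plus strand) and chr4:74794474-74794773 (minus strand). Capitals mark the GC box GGGCGG, the TATA box TATAAA, the cyclic AMP response element TGACGTCA, the AP-1 site TGANTCA and the kappaB consensus, each searched on both strands.
HBEGF: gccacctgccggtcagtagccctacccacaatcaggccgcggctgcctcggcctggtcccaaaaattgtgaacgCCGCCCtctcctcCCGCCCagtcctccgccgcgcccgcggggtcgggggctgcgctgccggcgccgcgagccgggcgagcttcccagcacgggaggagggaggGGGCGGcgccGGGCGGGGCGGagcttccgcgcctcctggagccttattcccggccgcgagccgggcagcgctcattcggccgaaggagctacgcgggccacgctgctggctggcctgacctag
EREG: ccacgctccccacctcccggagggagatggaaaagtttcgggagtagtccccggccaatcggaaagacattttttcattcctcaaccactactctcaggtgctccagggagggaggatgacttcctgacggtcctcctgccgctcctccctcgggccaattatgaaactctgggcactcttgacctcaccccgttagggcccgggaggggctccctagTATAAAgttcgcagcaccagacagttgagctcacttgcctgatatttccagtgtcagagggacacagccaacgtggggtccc
BTC: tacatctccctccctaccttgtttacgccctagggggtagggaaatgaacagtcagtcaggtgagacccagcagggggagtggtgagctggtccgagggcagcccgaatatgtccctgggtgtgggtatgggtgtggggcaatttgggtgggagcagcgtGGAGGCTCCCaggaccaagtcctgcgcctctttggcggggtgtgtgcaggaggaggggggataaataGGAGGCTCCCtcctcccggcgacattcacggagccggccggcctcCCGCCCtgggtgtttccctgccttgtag
The HBEGF window held 5 GC boxes, 2 of them overlapping each other, and 38 CpG dinucleotides at 75.0% G and C, against medians of 14 CpG and 58.7% over 35116 promoters. The EREG window held 12 CpG and a TATA box that began 32 bases before the start, a motif found in 11.5% of those promoters. The BTC window held 12 CpG, 1 GC box and 2 matches to the kappaB consensus, where 11.3% of promoters held such a match and 45.0% a GC box. Table entries existed for 8 of the 10 genes. Of the others with an entry, AREG held a TATA box and the cyclic AMP response element (1.85% of promoters), and 1 of the 2 TGFA windows held a kappaB match. AP-1 sites, in 7.71% of promoters, were found in the ERBB2 window and in 1 of the 2 EGFR windows, which also held 2 TATA boxes, the nearer of them 36 bases before the start. These matches describe the letters of the reference and are not shown to be bound.

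NRG1, the neuregulin gene whose products bind ERBB3 and ERBB4, has many transcripts, and 2 of its 7 probes were tested. ILMN_1737252, assigned to the glial growth factor form (NM_013962), gave log2 values of 6.64, 6.75 and 6.54 in saline and 7.25, 6.49 and 6.48 in CpG-ODN. CpG-ODN 1 was above, and both other CpG-ODN arrays were just below, all saline arrays. The log2 fold change was 0.10 ± 0.23, and it was −0.16 without CpG-ODN 1. ILMN_1844593 (AF176921) missed detection on CpG-ODN 1 alone and gave 6.08, 5.71 and 6.04 in saline and 5.50, 6.19 and 6.22 in CpG-ODN. On this probe CpG-ODN 1 was the lowest array and the other 2 CpG-ODN arrays were the highest, and the log2 fold change was 0.03 ± 0.23. The other 5 probes, of which 2 are assigned to the sensory and motor neuron-derived form (NM_013959) and 1 again to NM_013962, were detected on 0 arrays, with intensities from 78.8 to 131.7. The pair assigned to NM_013962 thus held 1 detected and 1 undetected probe, as was seen for ERBB2.

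**Figure D3:**
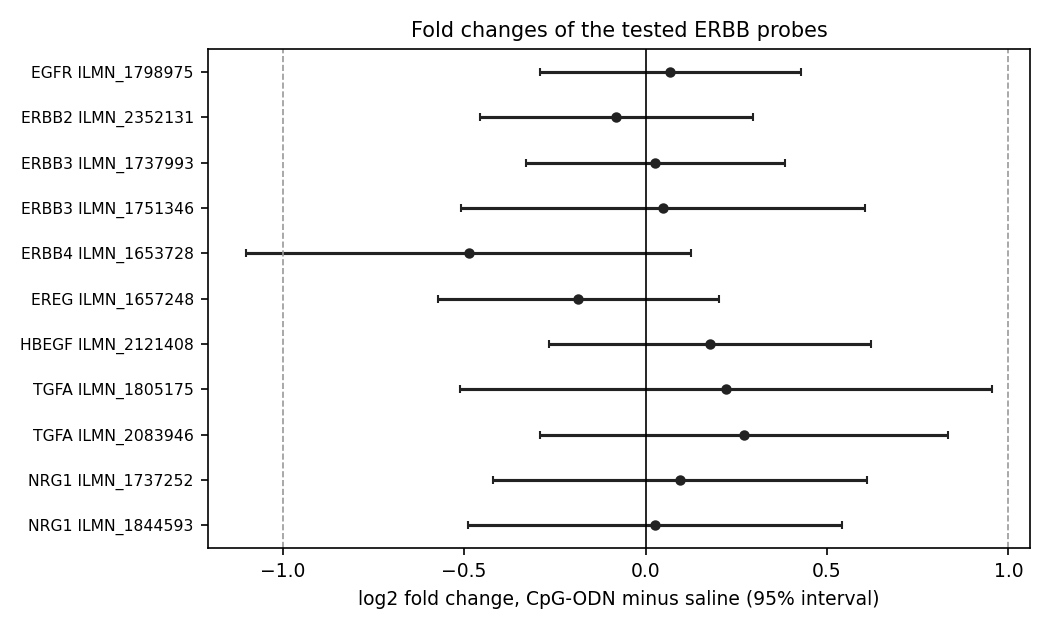
Log2 fold change, CpG-ODN minus saline, of the 11 tested ERBB probes with 95% intervals from limma, over 3 arrays in each group. Every interval includes 0 (solid line), and only that of ERBB4, from −1.10 to 0.13, reaches beyond 2-fold (dashed lines).

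The intervals bound fold changes on the normalized scale, on which those of dim probes are drawn towards 0. For 10 of the 11 probes the 95% interval lay inside 2-fold either way, or 90.9%, against 93.6% of all tested probes, and for 5 it lay inside 1.5-fold (EGFR, ERBB2, EREG, the short-form ERBB3 probe and NRG1 ILMN_1844593). NRG1 ILMN_1844593 had log2 means of 5.94 in saline and 5.97 in CpG-ODN. The lowest detected log2 value of an array was 5.50 to 5.67. A narrow interval on so dim a probe does not bound the change of its transcript. In data simulated with the means and spreads of the 17950 probes, limma recovered 0% of 200 probes changed 1.5-fold, 31% of those changed 2-fold and 92% of those changed 4-fold, with 0, 5 and 9 false calls. In this simulation, with a common spread for both groups, changes of 2-fold or less were therefore mostly not called. Each probe was drawn independently, so deviations that many probes of an array share were left out. Most member probes spread more over CpG-ODN than over saline arrays, so these shares need not hold for a single member.

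The spread between CpG-ODN arrays exceeded that between saline arrays for 10 of the 11 member probes, with a median SD of 0.41 against 0.13, while the same held for 74.2% of all tested probes, with medians of 0.28 and 0.16. Among the 3 CpG-ODN arrays, CpG-ODN 1 was farthest from the saline mean for 8 member probes, CpG-ODN 2 for 2 and CpG-ODN 3 for 1. Over all 17950 tested probes CpG-ODN 1 was farthest in 7298 (40.7%), CpG-ODN 2 in 7825 and CpG-ODN 3 in 2827. The deviations of CpG-ODN 1 and CpG-ODN 2 from the saline mean had opposite signs in 7 of the 11 probes, against 54.5% of all tested probes. In CpG-ODN 1 the largest were −1.14 for ERBB4, 0.79 for TGFA ILMN_2083946 and 0.61 for NRG1 ILMN_1737252. The largest in CpG-ODN 3 was 0.87, for TGFA ILMN_1805175.

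The probes whose values ran most like those of 1 receptor and 1 ligand probe, each with the highest mean of its kind, over the 6 arrays were also named. For ERBB2 ILMN_2352131 these were UGT1A6, FBXL20 and GAPDH, with Pearson correlations of 0.996, 0.996 and 0.993, out of 14523 probes searched. For HBEGF they were RMDN3, SLC44A2 and AAK1, each at 0.970. With 6 arrays such values come easily: 307 probes had a correlation over 0.9 with ERBB2 and 56 with HBEGF, and all values share the same arrays and their normalization.

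Genes around the receptors were described by 8 lists with 63 genes, of which 56 had a named probe and 48 a tested one, on 75 tested probes. In limma 0 of the 75 passed (background 0%), 4 had an unadjusted p under 0.05 (background 3.58%), all of them lower (background of lower probes 1.88%), and in 10 the groups did not overlap (background 9.35%). Of the 5 remaining ligand genes EPGN was not named by the annotation, and EGF and NRG4 had a tested probe. NRG4, a ligand of ERBB4, lay at 0.09 ± 0.17 on the log2 scale. EGF lay at −0.10 ± 0.32 and reached detection on only 2 arrays of each group.

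Genes that release ligands had a median log2 fold change of −0.24 over 10 probes, 8 of them lower, where 51.9% of all tested probes were lower. The metalloprotease gene ADAM9 lay at −0.59 ± 0.26, and at −0.31 without CpG-ODN 2. RHBDF1, whose inactive rhomboid product acts in the maturation of ADAM17, lay at −0.39 ± 0.18 and had no overlap between groups, with 10.65, 10.65 and 10.93 in saline and 10.14, 10.37 and 10.55 in CpG-ODN. Receptor adaptors had a median of −0.04 over 11 probes, 5 higher and 6 lower. Among them the RAS exchange factor gene SOS1 lay at −0.36 ± 0.16, and PLCG1, a phospholipase bound by active receptors, at 0.41 ± 0.23, with its other probe at 0.03 ± 0.20. The small GTPase gene HRAS lay at 0.27 ± 0.19 and 0.22 ± 0.19 on its 2 probes. PI3K and AKT genes had a median of −0.20 over 8 probes, 6 of them lower, with the kinase gene AKT1 at −0.36 ± 0.19 and the regulatory subunit gene PIK3R1 at 0.23 ± 0.18. Their other tested probes lay at −0.28 and 0.15.

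Genes listed as restraining the receptors had a median of −0.05 over 16 probes, 6 higher and 10 lower. LRIG2, of the leucine-rich repeat family, lay at −0.55 ± 0.22, with 6.67, 7.06 and 7.18 in saline and 6.58, 6.63 and 6.05 in CpG-ODN, so the groups did not overlap. LRIG1, which promotes the degradation of ERBB receptors, lay at 0.21 ± 0.17, and its other probe at −0.18. Receptor endocytosis genes had a median of −0.09 over 13 probes, 10 of them lower. Of the 3 tested probes of AP2A1, a subunit of the clathrin adaptor, 2 were lower without overlap, at −0.77 ± 0.26 (ILMN_2359211) and −0.53 ± 0.23 (ILMN_1673108). The third (ILMN_1815306) lay at −0.01 ± 0.27 with overlapping groups. ILMN_1673108 was detected on 3 saline arrays and 1 CpG-ODN array, so it met the detection filter through the saline arrays, where it was higher. Its lower CpG-ODN values are therefore not independent of that filter. It is nevertheless among the list probes counted above as lower at an unadjusted p under 0.05 in limma and as not overlapping.

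Genes that respond to ERK, the kinase downstream of RAS, had a median of −0.01 over 13 probes, 6 higher and 7 lower. DUSP4, a phosphatase of ERK, had the smallest unadjusted p of the lists (0.00591 in limma, adjusted p = 1.00), with 7.64, 7.73 and 8.28 in saline and 7.03, 7.27 and 7.17 in CpG-ODN. Its log2 fold change was −0.73 ± 0.21. DUSP6, the phosphatase that acts on ERK in the cytoplasm, lay at −0.56 ± 0.27 with overlapping groups, and its other probe lay at −0.01.

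**Figure D4:**
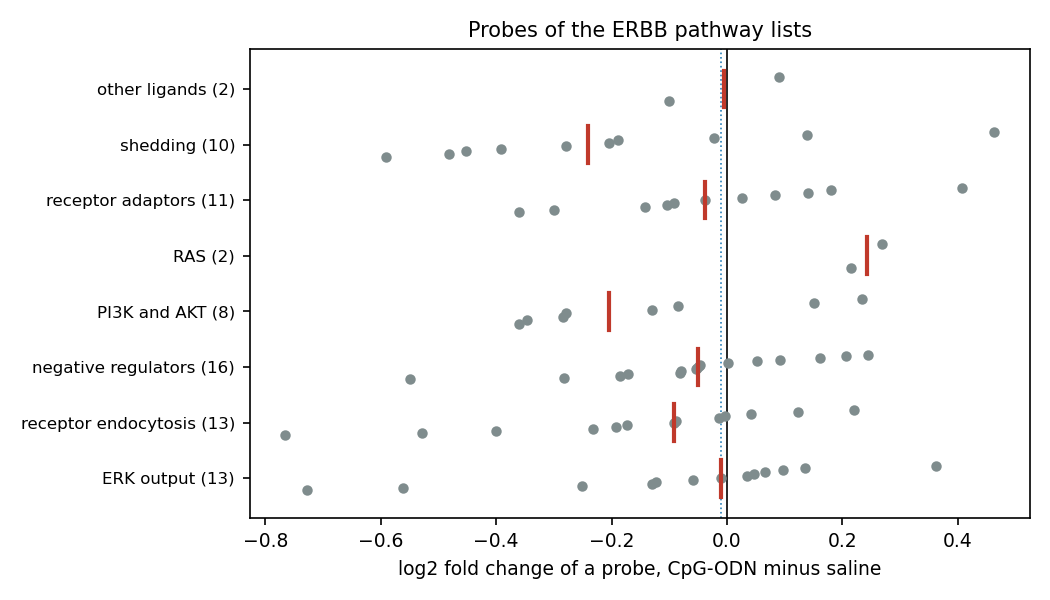
Log2 fold change, CpG-ODN minus saline, of the 75 tested probes of 8 ERBB pathway lists, with the number of probes of each list beside its name. Red bars are list medians, from −0.24 (shedding) to 0.24 (RAS), and the dotted line is the median of all tested probes, −0.01.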

How the data were processed

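The authors deposited linear probe intensities, neither normalized nor background-subtracted, and a detection p-value beside each intensity, per the file headers. BeadStudio is named in the submitters' processing notes. A second deposited table held normalized intensities, how they were normalized being not given in the sources used here. They differed by at most 0.0218 on the log2 scale from the non-normalized intensities after quantile normalization without background correction. Non-normalized intensities were corrected and quantile normalized with neqc of limma 3.58.1 in R 4.3.3 (offset 16). The offset draws fold changes of dim probes towards 0. Tested probes had to be detected (p under 0.05) on 3 or more of the 6 arrays. Probes were named from the platform annotation (28098 with 1 symbol, 13 with several, 20692 with none), and 28059 matched RefSeq by gene number. Group was the sole term in lmFit and eBayes, with Benjamini-Hochberg adjustment over 17950 probes. In each list the 2 probes with the smallest unadjusted p were named, and for the receptor and ligand probe with the highest mean the 3 most correlated probes. Members, lists and rules were chosen with earlier results of these data known. Deviations of same-numbered arrays from their group means correlated at 0.341, 0.0499 and 0.126. With no reference from differently numbered arrays, these values cannot decide whether the numbers mark pairs. The main fit left the numbers out, and a replicate block was fitted as an alternative. Alternatives changed background correction, offset, scaling, filter, weights, probe choice, block or arrays.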

Additional observations from a re-analysis of the deposited data

How the results depend on the processing

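The number of arrays limits the precision, and most members lie close to background. The count of called probes, of called members and of called list probes stayed at 0 in limma in all 16 alternatives, with 334 (median scaling) to 2903 (array weights) probes at an unadjusted p under 0.05. The replicate block gave 0 called probes and changed no call, with 893 probes at an unadjusted p under 0.05 in limma against 643 without it. Of 167 values of member probes under these alternatives 151 kept their sign and 0 passed, with adjusted p from 0.148. Changes of filter, probe choice and block left each fold change as in the main fit, so those signs could not turn. The deposited normalized values, also an alternative, nearly repeated those without background correction. Array weights (4.71 on CpG-ODN 3, and 0.257 and 0.349 on CpG-ODN 1 and 2) turned ERBB2 to 0.067, NRG1 ILMN_1737252 to −0.15, EGF to 0.30 and HRAS ILMN_1699798 to −0.028. They raised TGFA ILMN_1805175 from 0.22 to 0.73 (limma unadjusted p = 0.00649, adjusted p = 0.148). Median scaling turned NRG1 ILMN_1844593 to −0.070. Without CpG-ODN 1 and 2, a setting chosen after seeing the data that leaves 1 CpG-ODN array and takes its spread from saline, the values were 0.088 for ERBB2, −0.0049 for ERBB3 ILMN_1737993, −0.023 for HBEGF, −0.16 for NRG1 ILMN_1737252, −0.032 for NRG4, 0.31 for EGF, and −0.0060 and −0.10 for HRAS ILMN_1773751 and ILMN_1699798. With 1 array left out the ranges were −0.17 to 0.014 for ERBB2, −0.041 to 0.082 for ERBB3 ILMN_1737993, −0.17 to 0.31 for ERBB3 ILMN_1751346, −0.67 to −0.16 for ERBB4, −0.10 to 0.62 for TGFA ILMN_1805175, −0.16 to 0.23 for NRG1 ILMN_1737252, −0.098 to 0.25 for NRG1 ILMN_1844593 and −0.31 to 0.27 for EGF. For these changes of sign the cause was not tested. The median of the members kept its sign in all 16 alternatives, as did those of shedding, PI3K and AKT, and endocytosis genes, while that of RAS kept it in 14, adaptors and negative regulators in 12, ERK output in 11 and other ligands in 8. With 1 array left out the medians were 0.0054 to 0.082 for members, −0.29 to −0.20 for shedding, −0.23 to −0.070 for PI3K and AKT, and −0.24 to −0.074 for endocytosis. List probes at an unadjusted p under 0.05 numbered 2 without saline 3, 12 without CpG-ODN 1 and 15 with array weights, of which 0, 3 and 3 were higher. Without CpG-ODN 1 and 2 ADAM9 lay at −0.13 and TGFA ILMN_1805175 at 0.86. Without CpG-ODN 2 DUSP6 lay at −0.27 and PLCG1 at 0.15, and without CpG-ODN 1 AKT1 lay at −0.22. No block for the chip could be fitted without chip labels.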
